A study of Mus musculus with 69 samples.

Results

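The ovary and the hypothalamus of young virgin female mice were compared by bulk RNA sequencing. The comparison used 8 of the 69 samples of the series. These were 4 ovary and 4 hypothalamus libraries labelled wild type (WT), taken from the tables of raw counts and joined by gene ID. All came from virgin C57BL/6J females aged 8 to 12 weeks, euthanized at proestrus as staged by vaginal cytology. The WT mice were littermates of knock-in mice whose Zeb1 gene no longer responds to the microRNAs (miRNAs) of the miR-200 family, in lines derived from ES cell clones. They carried no knock-in allele and no treatment is named for them, so that both groups shared strain, sex, age, cycle stage and genotype and differed in tissue. Each library of a tissue came from a different mouse, and the labels did not state whether an ovary and a hypothalamus with the same replicate number came from 1 mouse. WT pituitary libraries from the same cohort (3) were used as a further tissue, and 4 ovary and 4 hypothalamus libraries of older WT females (28 to 36 weeks, after a breeding trial) as a separate cohort.

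The ovary and the hypothalamus are the lower and the upper end of the axis that controls ovulation. Hypothalamic neurons release peptide hormones, among them gonadotropin-releasing hormone, that drive the pituitary, and pituitary luteinizing hormone (LH) and follicle-stimulating hormone act on ovarian follicles. In follicles, theca cells make androgens that granulosa cells convert to oestrogen, the oocyte grows within the granulosa cells, and after ovulation the follicle becomes a corpus luteum that secretes progesterone. The hypothalamus is brain tissue, made of neurons, astrocytes, oligodendrocytes, tanycytes and blood vessels, and it senses the ovarian steroids.

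Counts summed to 7874366 to 12896366 in the ovary libraries and 3803035 to 4673023 in the hypothalamus libraries, so that low genes were measured more precisely in ovary. The 22 gamma protocadherin genes, which share their last exons, all read 142 to 201 CPM on average in ovary and 246 to 295 CPM in hypothalamus, so that reads in shared exons appear to have been counted for each gene that holds them. Values are counts scaled to 1000000 per library after TMM scaling of library sizes (CPM), and each gene was tested by edgeR's quasi-likelihood test with Benjamini-Hochberg adjustment. A gene was called when its adjusted p was below 0.05. Log2 fold changes are ovary minus hypothalamus, given ± SE. Ovary replicate 3, the deepest library, stood apart from the other 3 ovaries: it detected 35430 genes against 41425 to 42237, and it was the lowest of the 4 in 32 of the 47 genes whose SD between ovaries exceeded 0.5 on the log2 scale. Without it, 13482 of 17592 genes tested were called. Among genes of at least 20 CPM the median SD between libraries was 0.0989 in ovary and 0.112 in hypothalamus on the log2 scale. These are bulk tissues, in which fewer cells of a type and less RNA per cell cannot be told apart. Members named beyond the naming rule were chosen after their values were seen.

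Most genes differed between the organs. Of 17994 genes tested, 13798 (76.7%) were called, 7298 (40.6%) higher in ovary and 6500 (36.1%) higher in hypothalamus, so that a call by itself says little about any gene list. A difference of at least 4-fold was therefore counted too, and was met by 2387 genes (13.3%) higher in ovary and 2654 (14.7%) higher in hypothalamus. At least 32-fold separated 564 genes in favour of ovary and 802 in favour of hypothalamus. The libraries of the tissues overlapped in 1035 of the called genes, and 36.9% of the called genes differed by less than 2-fold. The median log2 fold change over all genes tested was 0.09. Of the genes tested, 236 had no read in any hypothalamus library and 5 had none in any ovary library, and for these a lower bound on the fold is given, computed against 3 counts over the group (0.0683 CPM in ovary, 0.202 CPM in hypothalamus).

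**Figure D1:**
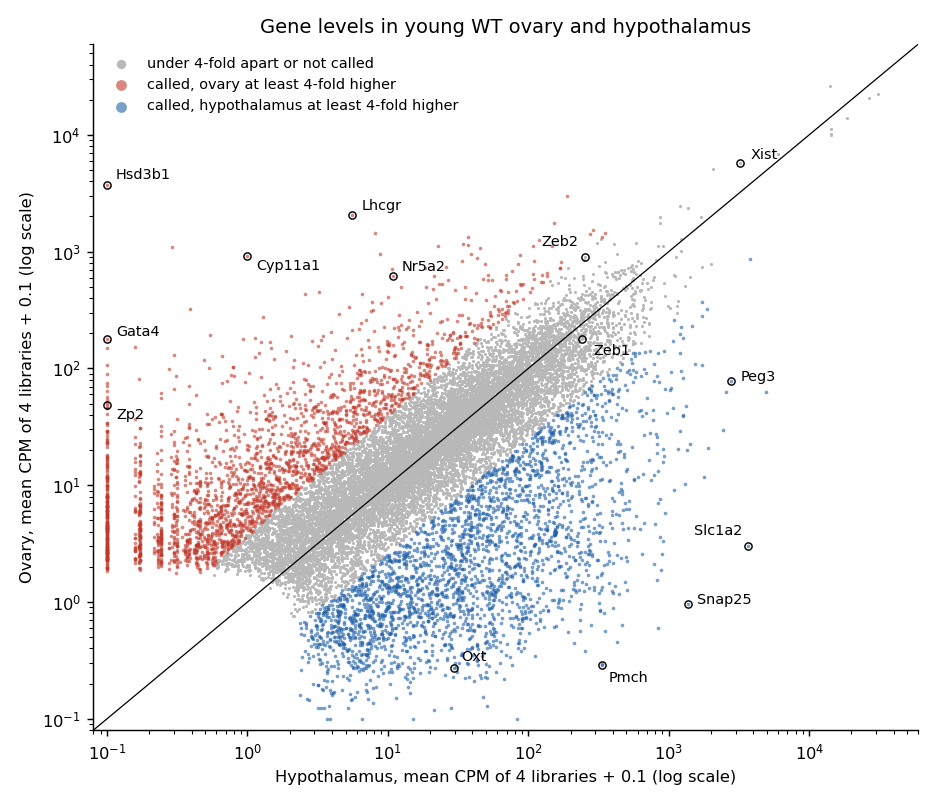
Mean CPM of 4 ovary libraries (vertical, log scale) against mean CPM of 4 hypothalamus libraries (horizontal, log scale) for the 17994 genes tested, with 0.1 added to each mean and the line of equal levels. The 2387 genes called at least 4-fold higher in ovary (red) include a column of genes at 0 in hypothalamus, and the 2654 called at least 4-fold higher in hypothalamus (blue) include Oxt and Pmch, near 0 in ovary, and Peg3, abundant in hypothalamus.

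The labelled tissues carried their defining markers. All 10 ovary markers were called higher in ovary, each by at least 4-fold (median log2 fold change 7.67, or 7.12 with genes at 0 in hypothalamus set to their lower bound). Gata4, a transcription factor of ovarian somatic cells, read 176, 177, 169 and 186 CPM in the 4 ovaries and 0 in every hypothalamus, at least 872-fold apart. Zp3, a protein of the zona pellucida around the oocyte, was measured at 30.8, 36.4, 41.0 and 27.5 CPM in ovary and was at 0 in every hypothalamus. The smallest differences among these markers, those of Inha (5.30 ± 0.11) and Gdf9 (5.82 ± 0.30), were still far outside the spread of the libraries. Of 10 hypothalamus markers, 9 passed the filter on low counts and all 9 were called higher in hypothalamus, 8 by at least 4-fold (median -7.19). Pmch, which encodes melanin-concentrating hormone, stood at 316, 328, 347 and 337 CPM in hypothalamus and at most 0.47 CPM in ovary. Hdc, the enzyme that makes histamine, differed least: it read 10.3, 10.2, 8.23 and 11.4 CPM in ovary and 21.6, 30.7, 35.4 and 28.6 in hypothalamus. Agrp, the appetite-stimulating peptide of the arcuate nucleus, was not tested, with 0.291 to 0.734 CPM in ovary and 0 to 1.16 in hypothalamus.

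Markers of other tissues were read in the same libraries, and their part in the tissue differences was not tested. Of 8 pituitary markers only prolactin (Prl) passed the filter. Prl read 19, 4.60, 27.0 and 26.0 CPM in the hypothalami against 146971 CPM on average in the pituitaries, and 0.0728 to 0.346 CPM in ovary. The summed pituitary markers came to 33.6, 13.2, 32 and 37.9 CPM in hypothalamus replicates 1 to 4 and 2.48 to 7.39 CPM in ovary. Of 5 cortex markers 3 were tested and 2 called higher in hypothalamus, with sums of 15.2 to 20.4 CPM there (median -2.74). Of 6 striatum markers 5 were tested and all 5 were higher in hypothalamus, with sums of 107 to 120.2 CPM against 7.94 to 15.2 in ovary (median -3.08). In the pituitaries the striatum sums were higher still, at 201 to 216 CPM, and the cortex sums were 13.6 to 15.1 CPM. Neither list was thus particular to hypothalamus. Ttr, the defining transcript of the choroid plexus, was at 0 to 0.862 CPM in hypothalamus, although 5 of 6 choroid plexus markers were tested and 3 were called higher in hypothalamus and 2 in ovary (sums 42.5 to 46.9 CPM in hypothalamus, 60.5 to 68.5 in ovary and 81.5 to 92.3 in pituitary). Red cell genes summed to 178, 60.9, 199 and 135 CPM in hypothalamus and 11 to 21.6 in ovary, with 3 of 5 tested and all 3 higher in hypothalamus. No skeletal muscle marker of 5 passed the filter.

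On the ovarian side, markers of tissue around the ovary were present. Adipocyte markers summed to 84.0, 138, 74.1 and 98.3 CPM in ovary replicates 1 to 4 and 0 to 0.575 in hypothalamus, and all 5 tested of 6 were higher in ovary (median 8.07, or 7.60 with the lower bounds). Oviduct markers summed to 379, 328, 204 and 482 CPM in ovary and 35.1 to 40.2 in hypothalamus, with 4 of 5 higher in ovary (median 1.11). Ovgp1, the secreted glycoprotein of the oviduct, read 311, 267, 160.1 and 399 CPM in ovary and 10.3 to 13.5 CPM in hypothalamus. A list of 43 axonemal dyneins and cilia proteins, chosen after the values were seen, summed to 972, 874, 549 and 1182 CPM in ovary and 709 to 813 in hypothalamus, so that the tissues overlapped. Of 38 tested, 16 were higher in ovary and 8 higher in hypothalamus (median 0.39). The share higher in ovary was close to the 40.6% over all genes tested. In each of these cilia and oviduct sums ovary replicate 3 was the lowest ovary and replicate 4 the highest. In the older ovaries the oviduct sum was 658, 14.0, 16.4 and 15.8 CPM, so that replicate 1 alone was high. A list of 4 satellite-like genes, also chosen after their values were seen, was likewise lowest in ovary replicate 3. All 4 were higher in ovary (median 3.85), and they summed to 4410.0, 4442, 1419 and 4342 CPM in ovary and 158 to 281 in hypothalamus. Odorant receptor genes had sums of 610.2, 744, 265 and 642 CPM in ovary over 1103 genes, of which 16 were tested and 13 called higher in ovary, and 57.7 to 93.8 CPM in hypothalamus. Ovary replicates 1 to 4 had counts in 972, 1007, 618 and 1015 of the 1103 receptors. Hypothalami, sequenced less deeply, had counts in 61 to 140. In the pituitaries 584 to 698 receptors had counts, and the satellite-like sum was 782 to 1248 CPM. That sum was at most 6.34 CPM in the older poly(A)-selected libraries. The satellite-like and odorant receptor lists are not tissue markers, and the source of their reads was not tested.

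**Figure D2:**
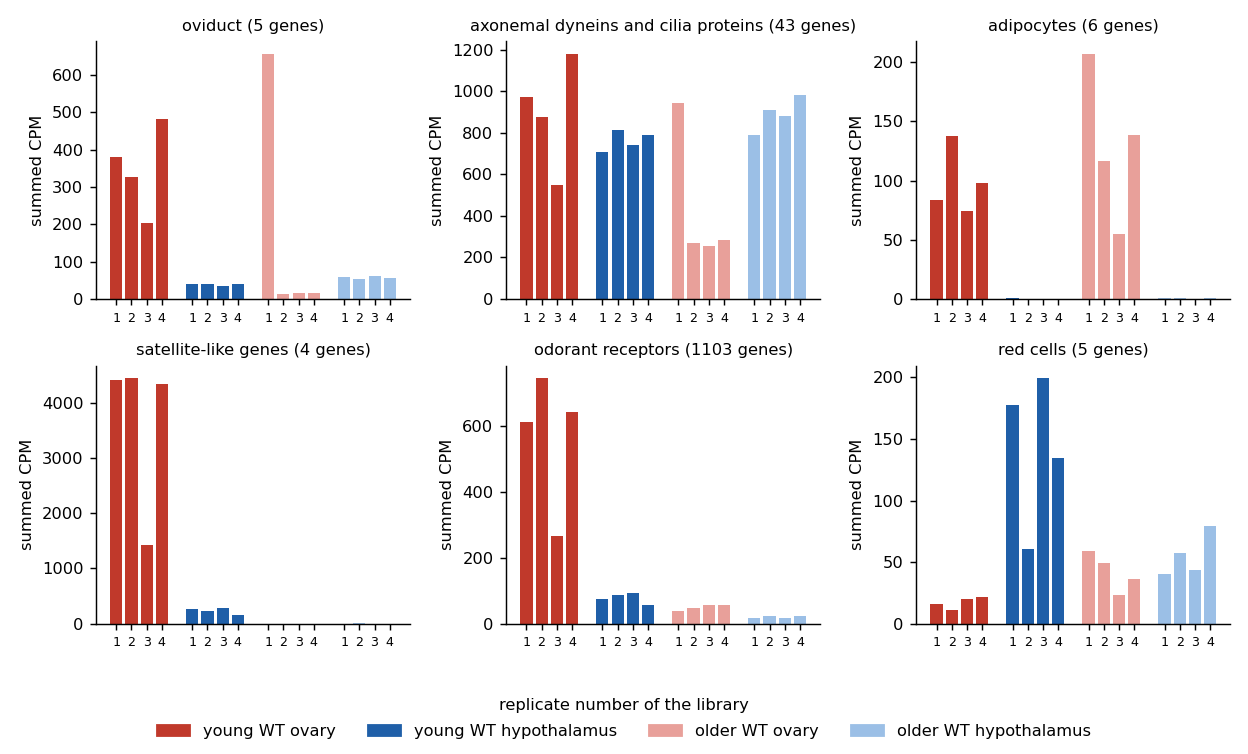
Summed CPM (vertical, linear from 0) of 6 gene lists in each library, by tissue, cohort and replicate number. Young ovary replicate 3 is the lowest young ovary in the oviduct, cilia, satellite-like and odorant receptor lists, and older ovary replicate 1 is the only older ovary with high oviduct values.

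Genes of steroid hormone synthesis were higher in ovary in every member tested. All 12 of the 14 members that passed the filter were called, 10 of them at least 4-fold apart, with a median log2 fold change of 7.39 against 0.09 over all genes (7.38 with the lower bounds). Hsd3b1, which converts pregnenolone to progesterone and lies at chr3:98852194-98859794 on the minus strand (GRCm38), read 3911, 3217, 4021 and 3867 CPM in ovary. It had no read in any of the hypothalami, a difference of at least 18762-fold. Per kilobase of transcript it was at 2024 ± 196 CPM in ovary (SD, n = 4), above Cyp11a1 at 436 ± 45.5 and Cyp17a1 at 61.5 ± 28.1. Hsd3b1 has close paralogs in the same gene cluster, so that its level also rests on how the counting split shared reads. Hsd3b6, one of them, was counted at only 1.09 to 2.08 CPM in ovary.

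The other steps of the pathway followed the same direction. Cyp11a1, the side-chain cleavage enzyme that turns cholesterol into pregnenolone, stood at 1035, 803, 948 and 908 CPM in ovary and 0.575, 0.862, 1.68 and 0.465 CPM in hypothalamus (10.01 ± 0.15, edgeR adjusted p = 1.93e-22). Star, which carries cholesterol into mitochondria, read 223, 129, 113 and 99.2 CPM in ovary, highest in replicate 1, and 1.15 to 2.32 CPM in hypothalamus (6.26 ± 0.33). Cyp17a1, the theca cell enzyme of androgen synthesis, read 128, 249, 99.8 and 117 CPM in ovary and 0 in every hypothalamus, so that ovary replicate 2 was the highest. None of the 3 genes overlapped between tissues. Cyp19a1, the aromatase of granulosa cells, was at 45.0, 50.2, 68.4 and 58.5 CPM in ovary and 0 to 0.287 in hypothalamus, a ratio of 420.2-fold (counting interval 116 to 3471). Akr1c18, which inactivates progesterone, was at 61.6 to 96.5 CPM in ovary and 0 in hypothalamus. The smallest differences were those of Hsd17b7 (1.54 ± 0.15) and Srd5a1 (1.81 ± 0.19), the latter the enzyme that reduces progesterone and testosterone at the 5-alpha position and present at 4.21 to 12.1 CPM in hypothalamus.

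Granulosa and theca genes were also uniformly higher in ovary. All 20 were tested and called, 19 by at least 4-fold (median 6.09). The LH receptor Lhcgr was among the most abundant transcripts at least 4-fold higher in ovary, at 2201, 1515, 2159 and 2284 CPM against 6.90, 6.32, 3.37 and 5.35 in hypothalamus (8.54 ± 0.16, edgeR adjusted p = 3.76e-21). Ovary replicate 2 was the lowest of the 4 and still lay far above every hypothalamus. Fshr, the receptor of follicle-stimulating hormone, read 97.4, 82.3, 96.1 and 65.2 CPM in ovary and 0 to 0.562 in hypothalamus. The subunits of the inhibins and activins were all high: Inhba read 1434, 1179.7, 1792 and 1327 CPM, Inha 697, 669.8, 808 and 710.4 CPM and Inhbb 237, 216, 243 and 182 CPM in ovary. In hypothalamus they reached at most 11.9, 21.9 and 7.67 CPM. Amh, the hormone of growing follicles, stood at 20.6, 37.5, 30.8 and 29.0 CPM in ovary and below 1 CPM in hypothalamus. Foxl2, the transcription factor that maintains granulosa cell identity, was at 88.2, 93.2, 85.1 and 78.0 CPM in ovary and at 0.281 to 1.39 in hypothalamus. Wt1, a transcription factor of granulosa cells and the ovarian surface, was at 98.4 to 119.8 CPM in ovary and 0 in hypothalamus. The smallest differences were those of Serpine2, a protease inhibitor (0.94 ± 0.08), and Kitl, the granulosa ligand of the oocyte receptor Kit (2.19 ± 0.08).

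Of 14 luteal genes 13 were higher in ovary (median 5.89), a list that shares Hsd3b1, Cyp11a1, Star, Scarb1, Akr1c18 and Lhcgr with those above. Prlr, the prolactin receptor, stood at 1274, 877, 1202 and 1134 CPM in ovary and 132, 146, 172 and 139 in hypothalamus (2.93 ± 0.10). Ptgfr, the receptor for the prostaglandin that ends luteal function, was at 116 to 211 CPM in ovary and 1.97 to 4.88 in hypothalamus. Parm1 was the exception, at 49.1 to 59.1 CPM in ovary and 184 to 207 in hypothalamus (-1.89 ± 0.07). Summed luteal genes came to 9982, 7668, 9712 and 9576 CPM in the young ovaries and 13868, 35278, 24354 and 19384 CPM in the older ones, where library type and counting also differed.

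Oocyte genes were higher in ovary almost without exception. Of 24 members 21 were tested, 20 were called higher in ovary and none higher in hypothalamus (median 8.07, or 5.51 with genes at 0 in hypothalamus set to their lower bound). Padi6, an enzyme of the oocyte cytoplasmic lattices, read 44.1, 61.5, 54.0 and 42.1 CPM in ovary and 0 in hypothalamus, at least 248-fold apart. Zp2, another zona pellucida protein, read 38.9, 56.1, 57.1 and 43.7 CPM and was likewise at 0 in hypothalamus. The oocyte growth factors Gdf9 and Bmp15 read 27.0, 43.6, 39.2 and 31.2 CPM and 68.4, 103, 86.2 and 65.6 CPM in ovary. In hypothalamus Gdf9 was at 0.281 to 0.930 CPM and Bmp15 at 0 to 0.281 CPM, which was 1 count in all. Each of these genes was higher in ovary replicates 2 and 3 than in replicates 1 and 4. The germ cell RNA helicase Ddx4 was not called (edgeR adjusted p = 0.22), at 2.11 to 4.04 CPM in ovary and 0.287 to 3.95 in hypothalamus, and was called without hypothalamus replicate 4 (1.31, edgeR adjusted p = 0.0385). The receptor Kit differed least of those called (0.48 ± 0.10).

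Genes that LH induces in the preovulatory follicle did not share a direction. Of 18 members 13 were tested, 5 were higher in ovary and 5 in hypothalamus, and the median was -0.24. Over all genes tested, 40.6% were called higher in ovary and 36.1% in hypothalamus, so that the split of this list was close to that of all genes. With all 18 tested, it was 2.04 with no filter (9 higher in ovary, 5 in hypothalamus) and 1.98 with DESeq2 (7 and 5). Ptgs2, which makes prostaglandins for follicle rupture, read 1.88, 2.08, 1.24 and 2.66 CPM in ovary and 2.87, 1.72, 2.25 and 2.32 CPM in hypothalamus (edgeR adjusted p = 0.559). Areg, Ptx3 and Il6 were at most 1.27, 1.97 and 0.658 CPM in ovary and were not tested. Pgr, the progesterone receptor, was at 47.8, 55.0, 75.6 and 103 CPM in ovary and 164, 157, 188 and 154 in hypothalamus (-1.23 ± 0.16, edgeR adjusted p = 3.71e-07). The 4 ovaries differed by more than 2-fold in Pgr and all lay below the 4 hypothalami. Runx1, a transcription factor, was higher in ovary (146 to 171 against 1.97 to 4.42 CPM). Members that neurons also use lay the other way: Snap25, Adcyap1 and Nts had log2 fold changes of -10.67, -6.92 and -4.15.

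Cell cycle genes were higher in ovary in 23 of 24 members, 21 of them by at least 4-fold (median 3.93). Mki67, the proliferation marker, read 137, 189, 184 and 181 CPM in ovary and 3.16, 2.30, 3.65 and 2.09 in hypothalamus (5.95 ± 0.17, edgeR adjusted p = 2.45e-18). Bub1, a kinase of the spindle checkpoint, was at 21.1 to 28.3 CPM in ovary and 0 to 0.232 in hypothalamus, and Ccnb1, the mitotic cyclin, at 24.8 to 36.9 and 0 to 0.862 CPM. Ovary replicate 1 was the lowest of the 4 in all 3 genes. Pcna, the DNA polymerase clamp, differed least among those higher in ovary (1.26 ± 0.16), and Ccne1, the cyclin of S phase entry, was higher in hypothalamus (-1.10 ± 0.29).

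Promoters of this list were searched for the CCAAT box, the site of the factor NF-Y that is common in mitotic genes, as the letters CCAAT on either strand. The RefSeq windows (GRCm38.p6) ran from 250 bases before to 50 after the gene start and covered 20 of the 24 members. CCAAT was found in 16 of the 20 (80%), against 41.1% of the windows of 27025 genes, 9 of 24 windows of hypothalamic peptides (37.5%) and 6 of 10 of steroid synthesis genes (60%). The 100 bases before the start are shown for 3 genes of cell division in which the motif occurs more than once there, with each match, CCAAT or its reverse complement, in capitals.
Cdk1, chr10:69352913-69353012, minus strand: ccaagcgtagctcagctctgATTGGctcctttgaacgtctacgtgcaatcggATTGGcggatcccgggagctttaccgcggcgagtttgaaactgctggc
Ccnb1, chr13:100786487-100786586, minus strand: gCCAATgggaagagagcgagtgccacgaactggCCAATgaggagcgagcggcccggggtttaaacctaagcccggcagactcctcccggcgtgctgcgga
Top2a, chr11:99024190-99024289, minus strand: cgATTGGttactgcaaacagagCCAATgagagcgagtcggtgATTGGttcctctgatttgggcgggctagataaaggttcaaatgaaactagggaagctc
The matches lie 48 and 80 bases before the start of Cdk1, 67 and 99 before that of Ccnb1, and between 58 and 98 before that of Top2a. Cdk1 and Top2a read 12.1 to 15.0 and 73.0 to 102 CPM in ovary and at most 0.281 and 1.16 CPM in hypothalamus. The motif AAGGTCA, which the ovarian nuclear receptors Nr5a1 and Nr5a2 bind, was found in none of the 10 steroid synthesis windows, 1 of 14 granulosa and theca windows (Amhr2, 7.14%), 3 of 24 peptide windows (12.5%) and 5.38% of all. Only these exact letters were sought, and windows covered 10 of the 14 steroid synthesis members. The search therefore cannot show that variant or more distant sites are absent.

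**Figure D3:**
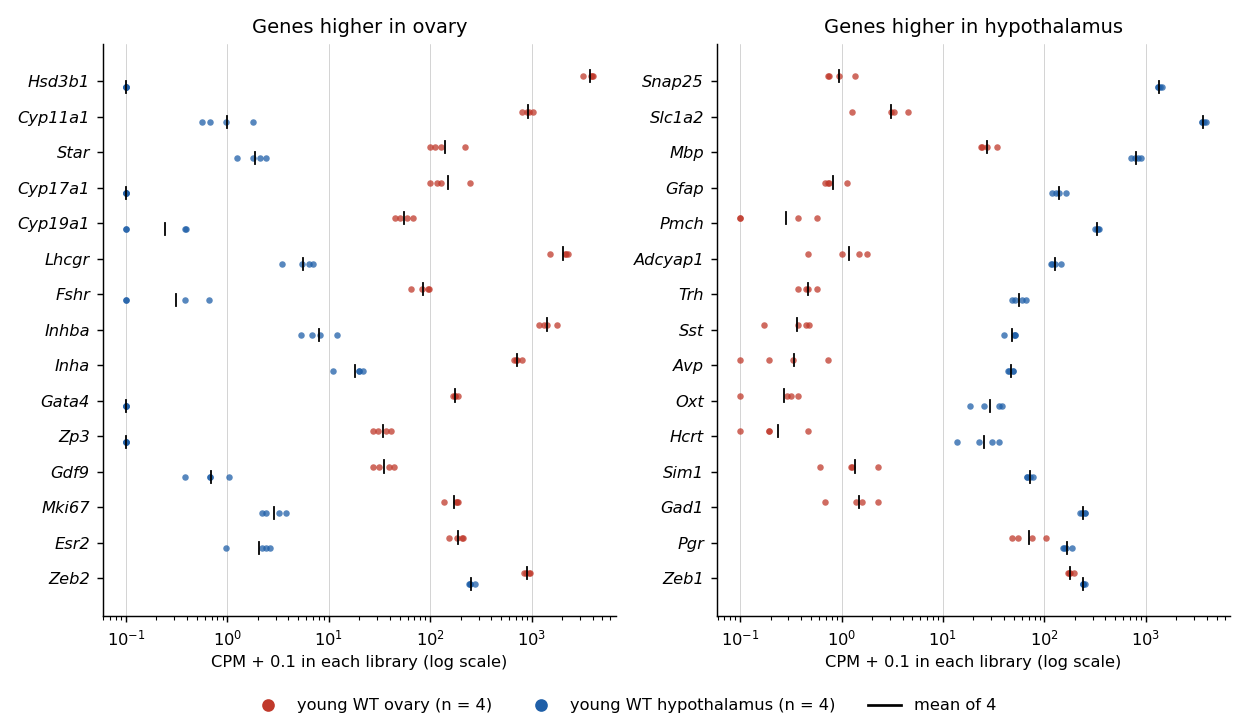
CPM plus 0.1 of 30 genes in each of the 4 ovary (red) and 4 hypothalamus (blue) libraries on a log scale, with black ticks at the means. The libraries of the tissues overlap in none of the genes, and in Zeb1, the lowest line on the right, all 4 ovaries (169 to 196 CPM) lie a short way below the 4 hypothalami (238 to 249 CPM).

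Hypothalamic peptide genes differed the other way. Of 29 members 22 were tested and all 22 were higher in hypothalamus, 20 by at least 4-fold (median -6.86). Pmch had the largest difference (-10.70 ± 0.18, edgeR adjusted p = 5.56e-22), followed by Scg2, a granin of secretory granules, at 425, 435, 477 and 524 CPM in hypothalamus and 0.218 to 0.846 in ovary. The posterior pituitary hormones read 49.4, 43.4, 44.9 and 49.1 CPM for Avp (vasopressin) and 25.3, 37.9, 18.5 and 35.3 CPM for Oxt (oxytocin) in hypothalamus, with at most 0.642 and 0.275 CPM in ovary. Of the releasing and inhibiting factors, Trh (thyrotropin-releasing hormone) stood at 47.7, 65.2, 60.7 and 50.9 CPM and Sst (somatostatin) at 40.2, 49.7, 51.7 and 51.4 CPM in hypothalamus, and both were below 0.5 CPM in every ovary. Adcyap1, which encodes PACAP, read 145, 117, 129 and 118 CPM in hypothalamus and 1.69, 1.39, 0.364 and 0.917 CPM in ovary. The feeding peptide Npy was at 39.7 to 65.1 CPM and the orexin gene Hcrt at 13.5, 22.7, 30.0 and 35.6 CPM in hypothalamus, Hcrt being lowest in replicate 1. Pomc, the melanocortin precursor, read 4.18 to 9.55 CPM in hypothalamus and 785 CPM on average in pituitary.

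The peptides at the smallest difference were present in ovary too. Penk, the enkephalin precursor, read 25.1, 24.4, 26.9 and 22.1 CPM in ovary and 60.7, 68.4, 72.7 and 56.5 CPM in hypothalamus (-1.38 ± 0.10), and Ghrh, growth hormone-releasing hormone, 1.17 to 3.38 and 6.61 to 11.8 CPM (-1.84 ± 0.31). Neither overlapped between tissues. The peptides nearest to the control of ovulation did not pass the filter on low counts. Gnrh1, the gonadotropin-releasing hormone gene, was at 1.41, 2.77, 2.33 and 2.02 CPM in ovary and 1.72, 1.44, 1.12 and 1.16 CPM in hypothalamus, and these ranges met. Kiss1 read 1.15, 0.287, 0 and 0.930 CPM and Crh 0.575, 0.862, 1.12 and 1.16 CPM in hypothalamus, Kiss1 overlapping with ovary (0 to 0.470 CPM) and Crh just reaching it (0 to 0.577 CPM). With no filter, edgeR gave log2 fold changes of 0.71 ± 0.45 for Gnrh1 (adjusted p = 0.217), -1.30 ± 0.97 for Kiss1 (adjusted p = 0.291) and -2.47 ± 0.96 for Crh (adjusted p = 0.0298), so that of these only Crh passed.

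Per kilobase of transcript, the order of the peptides in hypothalamus was Pmch (443 ± 17.8 CPM per kb, SD, n = 4), Scg2 (185 ± 18), Npy (89.2 ± 18.8), Avp (80.9 ± 5.22), Sst (66.9 ± 7.50), Oxt (54.5 ± 16.8), Penk (44.6 ± 5.06), Trh (40.6 ± 5.92), Adcyap1 (35.9 ± 3.71) and Hcrt (34.0 ± 12.8). Pmch and Scg2 were separated from their neighbours by more than their spread. From Npy to Hcrt, each pair of neighbours differed by less than the larger of their SDs, except Avp and Sst, which differed by more than either SD. Gnrh1 came at rank 23 of 29 with 2.12 ± 0.435 CPM per kb and Kiss1 at 25.

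Promoters of the peptides were searched for TGACGTCA, the cyclic AMP response element bound by CREB, which reads the same on both strands. It was found in 3 of 24 windows (12.5%), those of Cartpt, Scg2 and Sst, against 2.03% of 27025 windows, 0 of 10 for steroid synthesis and 1 of 20 for the cell cycle list (Mcm5, 5%). The 100 bases before the start of Sst and Scg2 are shown because both genes were near 0 in ovary, with the element in capitals.
Sst, chr16:23890845-23890944, minus strand: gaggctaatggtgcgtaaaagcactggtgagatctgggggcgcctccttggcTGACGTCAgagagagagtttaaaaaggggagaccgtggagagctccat
Scg2, chr1:79440027-79440126, minus strand: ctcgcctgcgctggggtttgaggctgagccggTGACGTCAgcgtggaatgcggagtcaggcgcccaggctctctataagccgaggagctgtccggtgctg
The element begins 48 bases before the start of Sst and 68 before that of Scg2. In pituitary Sst read 0.0709 CPM and Scg2 694 CPM on average, although both windows hold the element.

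Transcription factors that pattern the hypothalamus were mostly higher there. Of 25, 21 were tested, 15 were higher in hypothalamus, 14 by at least 4-fold, and 5 were higher in ovary (median -4.53). Otp, needed for the neuroendocrine neurons, stood at 86.5, 101, 88.2 and 84.9 CPM in hypothalamus and 0.146 to 0.808 CPM in ovary (-7.32 ± 0.18). Six3, a factor of forebrain and pituitary development, read 75.1 to 106 CPM in hypothalamus and 200.4 CPM on average in pituitary. Sim1 and Nkx2-1 were at 67.4 to 77.9 and 37.9 to 50.8 CPM in hypothalamus and below 2.3 CPM in ovary. Members higher in ovary included Nr5a1 (4.04), Nr0b1 (3.05), Lhx9 (3.04) and Tbx3 (2.22), given as log2 fold changes. Nr5a1, the regulator of steroid synthesis that also marks the ventromedial nucleus, read 86.0, 69.7, 72.2 and 71.2 CPM in ovary and 3.74, 5.75, 4.77 and 3.95 CPM in hypothalamus. Lhx6 was not called (edgeR adjusted p = 0.0993), but was called without hypothalamus replicate 4 (0.63, edgeR adjusted p = 0.0476) and with total counts as the only scaling (0.72, edgeR adjusted p = 0.013). Barhl1 passed narrowly (-1.18 ± 0.48, edgeR adjusted p = 0.0323), with overlapping libraries at 0.462 to 2.07 and 1.15 to 3.16 CPM, and its call was lost without ovary replicate 2 or 3 or without hypothalamus replicate 2, 3 or 4 (edgeR adjusted p from 0.0631 to 0.114), with total counts as the only scaling (0.0897), with no filter (0.0544) and with DESeq2 (0.0785).

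Genes of neurons and of most glia were higher in hypothalamus. All 22 neuronal and synaptic genes were at least 4-fold higher there (median -5.90). Snap25, a SNARE protein of synaptic vesicle fusion, read 1318, 1304, 1454 and 1379 CPM in hypothalamus and 0.846, 1.27, 0.655 and 0.642 CPM in ovary (-10.67 ± 0.11, edgeR adjusted p = 3.93e-24). Nefl, the neurofilament light chain, stood at 178 to 204 CPM in hypothalamus and 0.183 to 0.924 in ovary. The smallest differences were those of Vamp2 (-2.62 ± 0.06), another SNARE that read 254 to 291 CPM in ovary, and Uchl1 (-2.75 ± 0.13), a deubiquitinating enzyme. Of 16 transmitter enzymes and transporters 10 were tested and 9 were higher in hypothalamus. Slc17a6, the glutamate transporter of subcortical neurons, read 323, 328, 401 and 360.4 CPM there and 0.146 to 0.693 in ovary, and the GABA-making enzymes Gad1 and Gad2 225 to 253 and 483 to 528 CPM. The dopamine genes were low and uneven: Th was at 20.1, 13.5, 16.6 and 22.1 CPM and the transporter Slc6a3 at 14.4, 2.01, 1.97 and 9.76 CPM in hypothalamus, with replicates 1 and 4 high in both. Slc18a2, the vesicular monoamine transporter, was higher in ovary, at 137, 214, 178 and 148 CPM against 47.1 to 55.3 (1.71 ± 0.12).

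Astrocyte genes were higher in hypothalamus in 9 of 10 (median -5.53). Slc1a2, the main glutamate transporter of astrocytes, read 3733, 3553, 3919.9 and 3569.9 CPM in hypothalamus and 3.20, 3.0, 1.17 and 4.40 CPM in ovary (-10.34 ± 0.15, edgeR adjusted p = 7.94e-23). Gjb6, the connexin 30 gene, was at 68.8 to 79.7 CPM and Gfap, the astrocyte intermediate filament, at 163, 131, 139.8 and 118 CPM in hypothalamus. Agt (-1.71 ± 0.09) and Aldh1l1 (-1.57 ± 0.18) differed least. Gja1, which encodes connexin 43 and couples both astrocytes and granulosa cells, went the other way, at 1448, 1462, 1719 and 1529 CPM in ovary and 296, 274, 286 and 292 in hypothalamus (2.42 ± 0.06). Of 12 oligodendrocyte and myelin genes 11 were at least 4-fold higher in hypothalamus (median -5.48). Mbp, myelin basic protein, read 891, 719.5, 785 and 838 CPM there and 33.9, 27.1, 23.9 and 24.4 CPM in ovary. Cspg4, which marks both oligodendrocyte precursors and pericytes, was not called (edgeR adjusted p = 0.251; 15.0 to 19.6 and 16.6 to 22.6 CPM). The 8 tanycyte and ependyma genes did not share a direction: 7 were tested, 4 were higher in ovary and 1 in hypothalamus. Vim, an intermediate filament of many cells, was at 195 to 212 CPM in ovary and 23.0 to 31.9 in hypothalamus. Foxj1, the factor of motile cilia and itself a member of the oviduct list above, read 41.6, 35.1, 19.7 and 53.0 CPM in ovary and 14.3 to 22.3 CPM in hypothalamus.

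**Figure D4:**
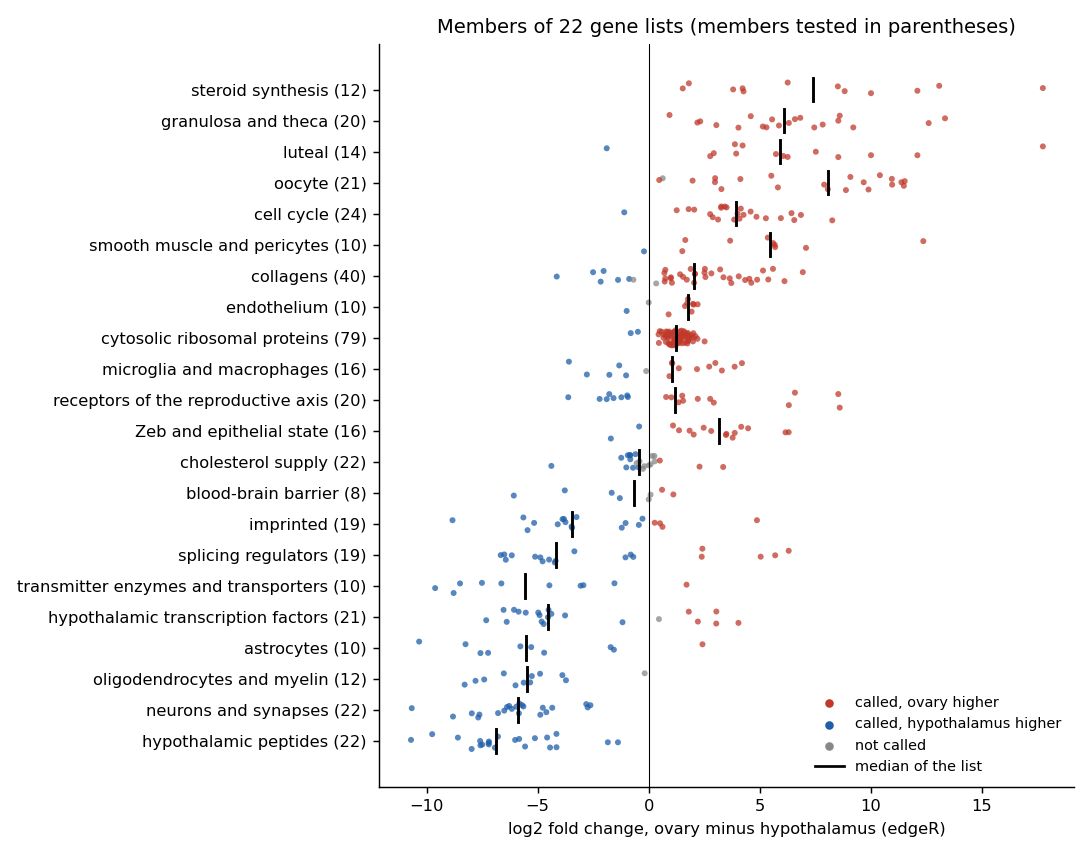
Log2 fold change (horizontal, ovary minus hypothalamus) of the members tested in 22 gene lists, with the median of each list as a black bar. Points are red where ovary was called higher, blue where hypothalamus was and grey where not called, and the medians of fitted values run from 8.07 for oocyte genes to -6.86 for hypothalamic peptides. With genes at 0 in hypothalamus set to their lower bound, the oocyte median is 5.51, below that of steroid synthesis (7.38).

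Regulators of alternative splicing were mostly higher in hypothalamus. All 19 were called, 14 higher in hypothalamus and 5 in ovary (median -4.19). Celf5, an RNA-binding protein of neurons, read 236 to 284 CPM in hypothalamus and 1.09 to 3.67 in ovary, and Elavl4, a neuronal Hu protein, 199 to 218 and 1.67 to 3.12 CPM. Ptbp1, the splicing repressor of non-neural cells, read 278, 268, 298 and 283 CPM in ovary and 53.5, 51.4, 54.5 and 55.6 CPM in hypothalamus (2.39 ± 0.07). Its neural paralog Ptbp2 lay the other way by less, at 139 to 155 CPM in ovary and 218 to 249.8 in hypothalamus (-0.69 ± 0.06). The epithelial regulator Esrp1 was at 17.9, 19.3, 16.5 and 15.8 CPM in ovary and 0 to 0.465 in hypothalamus, a ratio of 85.0-fold (counting interval 29.0 to 413). Rest, the repressor of neuronal genes in other tissues, was higher in ovary, at 106, 111, 109.5 and 92.8 CPM against 17.8, 18.4, 18.5 and 20.2 CPM (2.48 ± 0.10).

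The transcription factors Zeb1 and Zeb2, which repress epithelial genes and are repressed by miR-200, differed between the organs in opposite directions. Zeb1 stood at 179, 169, 196 and 176 CPM in ovary and 241, 238, 249 and 242 CPM in hypothalamus (-0.43 ± 0.06, edgeR adjusted p = 1.34e-06). The 4 ovaries lay below the 4 hypothalami, all by less than 1.5-fold. Zeb2 read 955, 849.9, 878 and 938 CPM in ovary and 276, 246, 243 and 246 CPM in hypothalamus (1.84 ± 0.06, edgeR adjusted p = 4.80e-17), so that it was over 3-fold higher in every ovary. Per kilobase of transcript, Zeb2 was above Zeb1 in ovary (79.1 ± 4.30 against 31.0 ± 1.94 CPM per kb), whereas Zeb1 was above Zeb2 in hypothalamus (41.8 ± 0.781 against 22.1 ± 1.35). Of 18 genes of the Zeb factors and the epithelial state 16 were tested, 14 were higher in ovary, and Zeb1 and Cdh2 (N-cadherin) were higher in hypothalamus (median 3.15). Epcam, an adhesion protein of epithelia, was at 14.7, 10.5, 10.6 and 16.9 CPM in ovary and 0 to 1.86 in hypothalamus, and Krt8, a keratin, at 5.17 to 6.58 and 0 to 0.232 CPM. Fn1, fibronectin, differed least of those higher in ovary (1.10 ± 0.08). In Cdh1 (E-cadherin) and Krt18 ovary replicate 4 was the highest and replicate 3 the lowest, as in the oviduct sums. Not all members shared this order: Esrp1 was lowest in ovary replicate 4, and Epcam was not lowest in replicate 3.

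The miR-200 miRNAs come from 2 loci. The host transcript Gm13648, at chr4:156052715-156059802 on the minus strand, spans the genes of miR-200b, miR-200a and miR-429, and Gm15884, at chr6:124715573-124718831 on the minus strand, spans those of miR-200c and miR-141. Their mature sequences are given from RefSeq (GRCm38.p6), with the seed (bases 2 to 8) in capitals. They are shown because they fall into a group with the seed AACACUG (miR-200a and miR-141) and a group with the seed AAUACUG (miR-200b, miR-200c and miR-429).
mmu-miR-200a-3p: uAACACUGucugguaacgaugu
mmu-miR-141-3p: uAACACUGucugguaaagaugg
mmu-miR-200b-3p: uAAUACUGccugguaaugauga
mmu-miR-200c-3p: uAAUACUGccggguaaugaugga
mmu-miR-429-3p: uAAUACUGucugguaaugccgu
Gm13648 was low in both tissues. It read 2.63, 1.5, 2.62 and 2.93 CPM in ovary and 0, 0.575, 0 and 0 CPM in hypothalamus, 2 counts in all, a ratio of 18.4-fold (counting interval 4.97 to 154). In the pituitaries it read 15.0 to 18.1 CPM. It overlaps Ttll10 on the same strand, with which it shares no annotated exon. Ttll10 had the same order of tissues, with means of 8.45 CPM in ovary, 0.332 CPM in hypothalamus and 13.4 CPM in pituitary. Whether reads of Ttll10 add to those of Gm13648 was not tested. Gm15884 was not tested, at 0.115 to 0.458 CPM in ovary, 0 to 0.287 in hypothalamus and 2.33 CPM on average in pituitary, and it lies opposite Phb2. These are levels of long host transcripts and not of mature miRNAs, which these libraries did not measure.

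Other noncoding miRNA hosts were surveyed in the same way, a set chosen after the values were seen. Of 41 noncoding transcripts that contain 77 miRNA genes and reached 5 CPM in a tissue, 13 were higher in ovary, 24 in hypothalamus and 4 were not called (median -1.38). Dnm3os, which contains miR-199a-2 and miR-214, stood at 113, 128, 125 and 103 CPM in ovary and 0 to 0.697 CPM in hypothalamus (8.12 ± 0.22). Gm2044, the host of miR-202, read 4.79, 9.47, 5.75 and 5.23 CPM in ovary and no count in hypothalamus. Mir17hg, the host of the miR-17 cluster, was at 14.2 to 16.9 CPM in ovary and 1.15 to 2.53 in hypothalamus. On the other side, Gm26871, which spans miR-137, read 127, 117, 126 and 115 CPM in hypothalamus and 0 to 1.56 in ovary. The 3 hosts of miR-9 all lay the same way: C130071C03Rik (miR-9-2) at 39.3 to 56.1 CPM, Gm3764 (miR-9-1) at 49.3 to 56.9 and Mir9-3hg at 9.83 to 12.4 in hypothalamus, against at most 2.38 CPM in ovary. A330023F24Rik, which spans miR-29b-2 and miR-29c, was at 22.1 to 27.9 CPM in ovary and 219 to 269 in hypothalamus, and C78859 (miR-138-2) at 0.801 to 2.20 and 36.5 to 46.5 CPM. Mir124a-1hg, named for miR-124 but not among the 41 transcripts, read 205, 214, 221 and 199.7 CPM in hypothalamus and 0.0940 to 0.583 in ovary. No mature miR-124 sequence was found in the source used. Mir99ahg was not called (edgeR adjusted p = 0.0566). Mature miRNAs of some unequal hosts, chosen after the values were seen, are shown with seeds in capitals, those of ovary first.
mmu-miR-199a-3p, chr1:162217883-162217904, plus strand: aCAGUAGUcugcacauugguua
mmu-miR-214-3p, chr1:162223438-162223459, plus strand: aCAGCAGGcacagacaggcagu
mmu-miR-202-5p, chr7:139957732-139957752, minus strand: uUCCUAUGcauauacuucuuu
mmu-miR-202-3p, chr7:139957695-139957716, minus strand: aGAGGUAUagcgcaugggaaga
mmu-miR-17-5p, chr14:115043684-115043706, plus strand: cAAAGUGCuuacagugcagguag
mmu-miR-20a-5p, chr14:115044183-115044205, plus strand: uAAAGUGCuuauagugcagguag
mmu-miR-9-5p, chr3:88215613-88215635, plus strand: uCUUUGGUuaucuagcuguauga
mmu-miR-137-3p, chr3:118433901-118433923, plus strand: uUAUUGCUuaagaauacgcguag
mmu-miR-138-5p, chr8:94324312-94324334, plus strand: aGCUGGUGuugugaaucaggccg
mmu-miR-29c-3p, chr1:195037600-195037621, plus strand: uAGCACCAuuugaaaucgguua
mmu-miR-29b-3p, chr1:195037091-195037113, plus strand: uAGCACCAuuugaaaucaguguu
The miR-17 and miR-20a sequences share the seed AAAGUGC, and miR-29b and miR-29c share AGCACCA. No seed is shared between an ovary host and a hypothalamus host among those shown, which are only some of the hosts surveyed. Hosts of let-7a genes, not shown, lay in both directions. Mir100hg (let-7a-2) had a log2 fold change of -1.38 and 6720427I07Rik (let-7a-1) one of 1.29. The positions given for miR-9-5p, miR-29b-3p, miR-138-5p and miR-199a-3p are those of Mir9-1, Mir29b-2, Mir138-2 and Mir199a-2, since these miRNAs have more than 1 gene.

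Imprinted genes leaned to hypothalamus. All 19 were called, 15 higher in hypothalamus, 11 of them by at least 4-fold, and 4 higher in ovary (median -3.45). Magel2, a regulator of secretory traffic in the Prader-Willi region, read 104 to 123 CPM in hypothalamus and 0.0940 to 0.462 in ovary. Peg3, a zinc finger protein, stood at 2695, 2827, 2853 and 2791 CPM in hypothalamus and 79.9, 71.6, 79.8 and 80.9 CPM in ovary (-5.16 ± 0.06), and Meg3, a noncoding RNA, at 357, 376, 388 and 368 CPM and 20.4, 23.2, 28.3 and 28.6 CPM. The neighbours Igf2 and H19 lay in opposite directions. The growth factor gene Igf2 read 27.3, 37.3, 33.0 and 30.5 CPM in ovary and 324, 287, 298 and 307 CPM in hypothalamus (-3.25 ± 0.08), and the noncoding H19 9.97, 15.9, 15.0 and 16.6 CPM and 0.862, 0.575, 0.281 and 0.232 CPM (4.88 ± 0.36). Kcnq1ot1 (-0.28 ± 0.05) and Sgce (0.27 ± 0.09) differed least. Kcnq1ot1 turned to 0.38 when the trend with gene length was removed and lost its call with total counts as the only scaling (-0.014, edgeR adjusted p = 0.814). Sgce lost its call with the length trend removed (0.068, edgeR adjusted p = 0.515) and without hypothalamus replicate 1 (0.21, edgeR adjusted p = 0.064).

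Genes of connective tissue and vessels were mostly higher in ovary. Of 44 collagen genes 40 were tested, 32 were higher in ovary, 21 by at least 4-fold, and 6 higher in hypothalamus (median 2.06). Col6a4, a chain of microfibrillar collagen, was at 168 ± 9.72 CPM in ovary and 1.34 ± 0.534 in hypothalamus (mean ± SD, n = 4), and the fibrillar Col3a1 at 437 ± 34.6 and 6.40 ± 3.13. Smooth muscle and pericyte genes were higher in ovary in 9 of 10 (median 5.48). Actg2, the smooth muscle gamma actin, read 67.2, 69.2, 106 and 116 CPM in ovary and 0 in hypothalamus, at least 454-fold, and Cnn1, calponin, 52.9, 56.2, 81.8 and 110.4 CPM and 0 to 1.12 CPM. In both, ovary replicates 3 and 4 were above replicates 1 and 2. Rgs5, a pericyte gene, was slightly higher in hypothalamus (-0.21 ± 0.09), its call was lost without ovary replicate 2, 3 or 4 or without hypothalamus replicate 3 or 4 (edgeR adjusted p from 0.0724 to 0.186), with no filter (0.148) and with DESeq2 (0.107), and its direction turned when only total counts were used for scaling.

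Of 10 endothelial genes 8 were higher in ovary (median 1.76). Cdh5, the cadherin of endothelial junctions, was at 98.8 to 117 CPM in ovary and 21.6 to 25.9 in hypothalamus, while Flt1, a receptor for vascular endothelial growth factor, was higher in hypothalamus (-0.99 ± 0.08). Genes of the blood-brain barrier split: of 8, 2 were higher in ovary, 4 in hypothalamus and 2 were not called (median -0.65). Slco1c1, a thyroid hormone transporter of brain capillaries, read 37.9 to 42.3 CPM in hypothalamus and 0.218 to 1.39 in ovary. Cldn5, the tight junction claudin, was not called, at 2.66 to 3.95 CPM in ovary and 2.09 to 6.03 in hypothalamus. Of 17 microglia and macrophage genes 16 were tested, 10 were higher in ovary and 5 in hypothalamus (median 1.06). Those higher in hypothalamus included P2ry12 (-3.59), Sall1 (-2.78), Siglech (-1.77) and Cx3cr1 (-1.33, log2 fold changes), genes typical of microglia. Lyve1 and Ccr2, which mark tissue macrophages and monocytes, were at 19.5 to 24.7 and 18.3 to 22.9 CPM in ovary and 0.287 to 2.25 and 0.862 to 1.72 CPM in hypothalamus. Csf1r, the receptor both lineages share, was not called (edgeR adjusted p = 0.457).

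Receptors of the reproductive axis were found in both tissues. Of 21 receptors 20 were tested and all were called, 12 higher in ovary and 8 in hypothalamus (median 1.19). Esr1, oestrogen receptor alpha, read 154, 133, 131 and 166 CPM in ovary and 29.6, 30.7, 34.8 and 30.9 CPM in hypothalamus (2.21 ± 0.10). Esr2, oestrogen receptor beta, differed more, at 186, 207, 211 and 154 CPM and 0.862, 2.30, 2.53 and 2.09 CPM (6.59 ± 0.18, edgeR adjusted p = 1.23e-18). Per kilobase of transcript the 2 oestrogen receptors were at 18.8 ± 2.17 (Esr1) and 56.3 ± 7.72 (Esr2) CPM per kb in ovary, and at 4.07 ± 0.293 and 0.578 ± 0.221 in hypothalamus. In pituitary Esr1 read 438 CPM and Esr2 0.442 CPM on average. Receptors higher in hypothalamus included Tacr3, the neurokinin B receptor (-3.62 ± 0.22), Kiss1r, the kisspeptin receptor (-2.21 ± 0.35), and Pgr as above. Insr, the insulin receptor (0.79 ± 0.07), and Nr3c1, the glucocorticoid receptor (-0.94 ± 0.07), differed least. Gnrhr was not tested, at 0.752 to 2.54 CPM in ovary and 0 to 0.287 in hypothalamus against 182 CPM in pituitary.

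Cholesterol supply was closer to level. All 22 genes were tested, 3 were higher in ovary, 10 in hypothalamus and 9 were not called (median -0.43). Soat1, which esterifies cholesterol for storage, read 1138, 1006, 1133 and 1167 CPM in ovary and 112, 107, 103 and 113 CPM in hypothalamus (3.35 ± 0.07). Cyp46a1, the brain enzyme that hydroxylates cholesterol for export, was at 36.8 to 45.8 CPM in hypothalamus and 1.28 to 2.55 in ovary. Dhcr7, an enzyme of the last step of synthesis, was not called (0.09 ± 0.09). Of 82 cytosolic ribosomal protein genes 79 were tested, 77 were higher in ovary and 2 in hypothalamus, with a median of 1.25 and 4 past 4-fold. Rplp0, an acidic stalk protein, was at 236 ± 12.2 CPM in ovary and 41.2 ± 1.90 in hypothalamus, and Rpl24 at 28.9 ± 0.225 and 20.9 ± 2.48. The call of Rpl24 was lost with the trend with gene length removed (0.13, edgeR adjusted p = 0.313). Reads of ribosomal protein genes can be shared with their many pseudogenes. Of 37 mitochondrial genes 26 were tested, 17 were higher in hypothalamus and 1 in ovary (median -0.60), and mitochondrial genes took 9.36 to 9.75% of counts in ovary and 10.3 to 11.8% in hypothalamus.

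The ribosomal proteins are short transcripts, and gene length moved with the tissue difference. Among protein-coding genes the median log2 fold change was 0.78 for 55 genes with transcripts up to 500 bases and 0.21 for 480 genes between 500 and 1000 bases. It was 0.25 between 1000 and 2000 bases, -0.01 between 4000 and 8000 and -0.19 above 8000. With that trend removed 13719 genes were called, 6709 higher in ovary and 7010 higher in hypothalamus. All 34 list medians kept their sign with the trend removed and moved by at most 0.46, for example from 1.25 to 0.95 for ribosomal proteins and from -0.60 to -1.06 for mitochondrial genes.

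The naming rule also took the largest and the most abundant differences whatever the gene. Among genes of at least 100 CPM, the 8 largest towards ovary by fitted fold were Hsd3b1, Gata4, Cyp17a1, Wt1, Akr1cl, Mgarp, A530020G20Rik and Cyp11a1. Hsd3b1, Gata4, Cyp17a1 and Wt1 had no read in any hypothalamus. Their folds are known only as lower bounds, so that the fitted order does not fix their places. Akr1cl, an aldo-keto reductase, read 1187, 897, 1175 and 1121 CPM in ovary and 0 to 0.465 in hypothalamus (a ratio of 5482-fold (counting interval 1876 to 26584)), and as a member of a multigene family its level is uncertain. Mgarp, a mitochondrial protein, was at 182, 125, 159.9 and 146 CPM and 0 to 0.232 CPM, and the uncharacterised A530020G20Rik at 306, 223, 368 and 390.0 CPM and 0 to 1.15 CPM. Towards hypothalamus they were Vsnl1, Resp18, Pmch, Snap25, Slc1a2, Nrsn2, Gm44560 and Scg2. Vsnl1, a neuronal calcium sensor, read 805, 820.1, 909 and 796 CPM in hypothalamus and 0.188, 1.04, 0.291 and 0.458 CPM in ovary (-10.78 ± 0.14, edgeR adjusted p = 2.33e-23). Resp18, a secretory granule protein, was at 318 to 348 CPM in hypothalamus and 331 CPM on average in pituitary, and Nrsn2, a vesicle protein of neurons, at 401 to 461 and 7.11 CPM. Gm44560, a transcript on the strand opposite Ube3a, read 240.1, 244, 273 and 251 CPM in hypothalamus and 0.282, 0.115, 0 and 0.734 CPM in ovary.

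The most abundant genes at least 4-fold higher in ovary were Hsd3b1, Gm10800, Lhcgr, Neat1 and Gja1. Neat1, the scaffold RNA of paraspeckles, read 1975, 1735, 1735 and 1604 CPM in ovary and 173, 141, 134 and 158 CPM in hypothalamus (3.54 ± 0.08). Gm10800 read 3624, 3601, 1191 and 3542 CPM in ovary and 221, 183, 219 and 132 CPM in hypothalamus, with ovary replicate 3 at a level of its own. It resembles satellite repeats found in many copies, so that its reads cannot be placed with certainty. In hypothalamus the most abundant were Snhg11, Map1b, Slc1a2, Peg3 and Cdr1os. Snhg11, a noncoding snoRNA host, read 4827, 5185, 5145 and 4699 CPM in hypothalamus and 72.9, 56.4, 53.2 and 68.7 CPM in ovary, Map1b, a microtubule protein, 3679.5, 3689, 3951 and 3779 CPM and 843, 940.3, 909.8 and 799 CPM, and Cdr1os, a noncoding transcript, 2433, 2653, 2668 and 2435 CPM and 57.3, 67.4, 38.5 and 90.0 CPM. Xist, which silences 1 X chromosome in females, was high in both, at 5827, 5409, 6118 and 5569 CPM in ovary and 3487, 3155, 3352 and 2834 CPM in hypothalamus (0.84 ± 0.06).

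The same contrast was read in the older WT females, whose libraries were poly(A)-selected, unstranded and counted with different tools for the 2 tissues, so that there tissue and counting cannot be told apart. Of 17977 genes tested, 7921 (44.1%) were higher in ovary and 6926 (38.5%) in hypothalamus. Of the young genes at least 4-fold higher in ovary, 2005 were tested in both cohorts and 1940 (96.8%) were called the same way, 12 the opposite way. For hypothalamus these numbers were 2032 of 2087 (97.4%) and 32. Over the 15501 genes tested in both cohorts the Pearson r of the log2 fold changes was 0.837, across genes, which are not independent. Of the list medians given above, those that could also be computed in the older cohort kept their sign, for example 6.83 for steroid synthesis, 6.94 for oocyte genes, -9.04 for peptides and -7.08 for neurons, except for cholesterol supply (0.68) and the tanycyte and cilia lists (-0.96 and -1.07). Zeb1 and Zeb2 had log2 fold changes of -0.91 and 1.84 there, and Pgr -2.98.

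Crh, below the filter in the young cohort, was called in the older one, at 4.03 to 8.85 CPM in hypothalamus and with no read in any ovary. Gnrh1 had a log2 fold change of -1.27 there. Of the 44 genes called in opposite directions, 30 (68.2%) have an annotated gene on the opposite strand, against 42.3% of all young genes at least 4-fold apart, and 38 (86.4%) overlap a gene on either strand, against 53.4%. Gm44560, which had the largest young fold of the 44, read 12.0, 13.1, 10.7 and 11.8 CPM in older ovary and 1.33, 2.11, 1.11 and 0.788 CPM in older hypothalamus (3.16). Ube3a, on the other strand, was at 429.5 to 479 CPM in young ovary and 612 to 639 CPM in young hypothalamus. The older libraries were counted without regard to strand, so that reads of Gm44560 and Ube3a cannot be told apart there. A further 207 genes were under 2-fold apart in the young cohort and over 32-fold higher in ovary in the older one, against 5 in the other direction. Of these 207, 189 (91.3%) overlap a gene on the same strand, against 26.1% of all genes tested in both cohorts. They included gamma protocadherins, whose means were 180.4 to 276 CPM in older ovary and 0 to 40.4 CPM in older hypothalamus, the tissue counted with htseq-count.

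**Figure D5:**
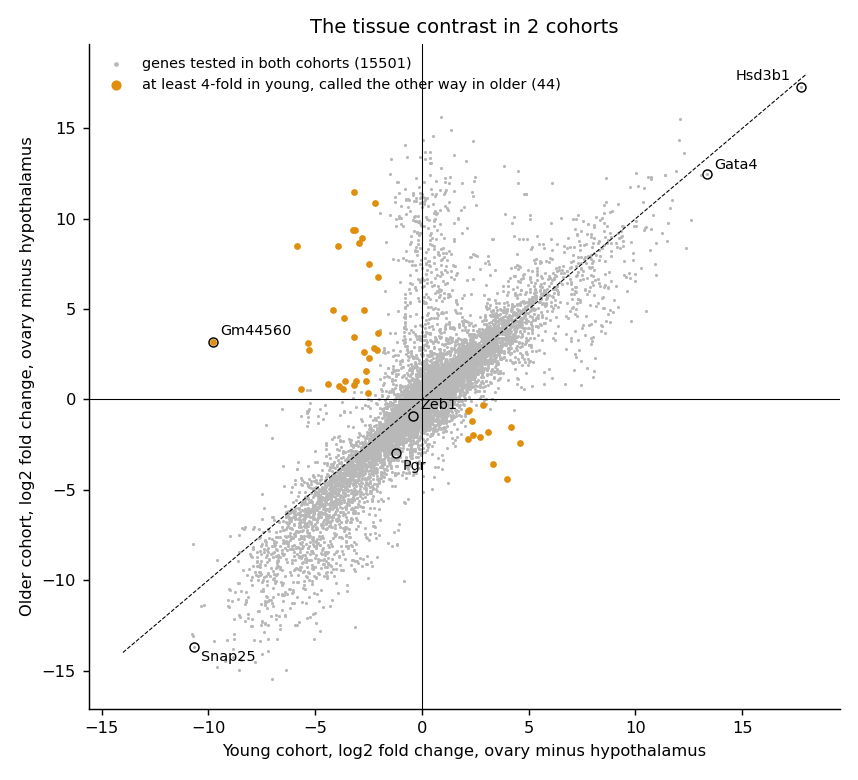
Log2 fold change, ovary minus hypothalamus, in the older cohort (vertical) against the young cohort (horizontal) for 15501 genes tested in both, with the line of equal change. The 44 genes at least 4-fold apart in the young cohort and called the other way in the older one are orange and include Gm44560 at -9.76 and 3.16, while Hsd3b1, Gata4 and Snap25 lie towards the ends of the line.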

How the data were processed

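Total RNA from whole tissues was depleted of ribosomal RNA and sequenced as stranded paired-end libraries. The authors aligned reads to mm10 (GRCm38) with STAR 2.7.1a, assigned them to GENCODE vM25 genes with featureCounts (reverse-stranded) and deposited raw counts per gene, of which the WT columns were used here. Per the labels and methods, the older cohort was poly(A)-selected and unstranded, with featureCounts for ovary and htseq-count for hypothalamus. Columns of the authors' own comparisons (fold changes and p-values) were not used.

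Counts of 55401 gene IDs were joined over the 8 young ovary and hypothalamus libraries, with filterByExpr, TMM scaling and glmQLFit and glmQLFTest of edgeR 4.0.16 (limma 3.58.1, R 4.3.3). Both groups shared 1 estimate of the spread (6 residual degrees of freedom). The pipeline was tested on simulated data in which few genes differed, unlike in these organs, so that the scaling between tissues was not checked there. Coordinates, transcript lengths and overlaps came from GENCODE vM21 on the same build, and sequences from RefSeq (GRCm38.p6). Genes at 0 in a tissue were given a fold against 3 counts over its 4 libraries. For genes with 1 to 3 counts there, the ratio has an exact 95% interval, which covers counting error only.

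Genes were named by 4 rules: in each direction the 8 called genes of largest fold with a mean of at least 100 CPM and no overlap, the 5 most abundant that were at least 4-fold apart, a list of reproductive and hypothalamic genes, and the 2 largest and 2 smallest folds of each gene list. The members and lists were chosen with earlier results of these data known. Alternatives were DESeq2 1.42.0, other scalings and filters, a replicate block, the pituitary libraries added, each library left out, counts thinned to the shallowest library, and removal of the trend with gene length, the last of these, and leaving out older libraries, chosen after seeing the data. Some list members are not reported here by name.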

Additional observations from a re-analysis of the deposited data

Results flagged for a closer look

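Among 108 sets of 4 young WT libraries of named genes, 6 held a library whose gap to the nearest of the others exceeded Dixon's 95% critical value, where chance alone gives about 1 set in 20. Gm10800, a satellite-like gene, was low in ovary replicate 3 (1191 CPM, the others 3542 to 3624). The LH receptor gene Lhcgr was low in ovary replicate 2 (1515 CPM, the others 2159 to 2284). Mki67 was low in ovary replicate 1 (137 CPM, the others 181 to 189). Nr5a1 was high in ovary replicate 1 (86.0 CPM, the others 69.7 to 72.2). The imprinted gene Peg3 was low in ovary replicate 2 (71.6 CPM, the others 79.8 to 80.9). Zeb2 was high in hypothalamus replicate 1 (276 CPM, the others 243 to 246). None of these values overlapped with the other tissue.

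Gm44560, on the strand opposite Ube3a, had a log2 fold change of -9.76 in young mice and 3.16 in older mice, and every ovary was below every hypothalamus in the former and above in the latter. The difference between cohorts was not tested, and age, library type and counting cannot be told apart in it.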

How the results depend on the processing

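The number of genes called stayed within 1.5 times the reported 13798 under every alternative, from 12594 with counts thinned to the shallowest library to 18265 with no filter on low counts. The number at least 4-fold apart, 5041 as reported, rose to 9604 with no filter (6495 towards ovary, 3109 towards hypothalamus) and 7941 with DESeq2 (4781 and 3160), where 49655 and 29440 genes were tested. Leaving out 1 library at a time gave 13297 to 14266 called genes and 4890 to 5745 at least 4-fold apart, and 14627 to 15433 called genes in the older cohort. Scaling by total counts alone moved the median of all genes from 0.09 to 0.35 and the share of calls towards ovary from 52.9% to 62.1%. The ovary and hypothalamus numbers were not shown to pair the mice. The deviations of same-numbered libraries correlated at -0.020 to 0.059 over 7381 genes, and those of differently numbered libraries at -0.067 to 0.025. These small values do not settle whether the numbers pair the mice. A fit with the replicate number as a block called 13592 genes. Of 174 named genes tested, 11 changed their call under some alternative. Kcnq1ot1 turned to 0.38 with the length trend removed, and Rgs5 to 0.052 with total counts. The median of the ovulatory LH response list changed sign, to 0.022 with total counts, 2.04 with no filter, 0.0057 with a mean of at least 1 CPM and 1.98 with DESeq2. With no filter and with DESeq2 all 18 members of that list were tested, otherwise the cause was not tested. Depth limits low genes, above all in hypothalamus, where 3 counts over 4 libraries are 0.202 CPM.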
